A study of Mus musculus with 32 samples.

Results

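B2m and Tap1, 2 genes of the MHC class I pathway, were followed across liver and spleen of cloned mice, 2 of the 9026 genes that could be named on the array. They were chosen by their mean log2 ratios in these same arrays, which earlier results had shown to stand differently in liver and in spleen, so their levels by group and their differences between organs are a description, and nothing is read from a test of them. B2m encodes beta-2-microglobulin, the small invariant subunit of class I molecules. Tap1 encodes a subunit of the transporter TAP, which pumps peptides from the cytosol into the endoplasmic reticulum.

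The groups were livers of Dll1 clones, livers of wildtype clones, spleens of Dll1 clones and spleens of wildtype clones, with 4 male mice each, all of strain 129/SvJ and aged 18 to 19 weeks. The 8 animals were made by nuclear transfer, were labelled either Dll1 or wildtype, and gave both organs. Dll1 is a ligand of Notch receptors, and the labels give no further description of the Dll1 allele. Each mouse was hybridised on 2 arrays with exchanged dyes, 32 arrays in all, against a pool: Dll1 heterozygous mice for the Dll1 clones and wildtype mice for the wildtype clones, of the same strain, sex and age. The labels do not name the organ of the pool, and they list 4 pool animals where the protocol speaks of 6. The 4 mice of a group shared a pool, so its own spread between animals was not measured. Whether liver and spleen of a genotype were set against the same pool is not given. Nothing in the labels says whether the clones of a genotype came from 1 donor cell line.

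Every value below is a log2 ratio, clone over pool, in 1 organ. A value of 0 means that clone and pool gave equal signal. It says nothing about the absolute level of a gene in an organ, so markers of hepatocytes or lymphocytes could not serve as a check of the labelled organ. A difference of liver minus spleen is the difference between these ratios in the same animal. If the organs had different pools, it also holds any difference between those pools. That the clone stands on top of the ratio is likely from the titles and is not settled by the files, nor is it settled that the values of the dye-swapped arrays had already been turned to 1 direction. They were used as deposited, and values with the arrays of the clone in Cy3 turned are given where they matter. In these bulk tissues fewer cells of a type and less RNA per cell cannot be told apart.

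Class I molecules display peptides from inside the cell to CD8 T cells. A heavy chain encoded in the H2 region folds with beta-2-microglobulin in the endoplasmic reticulum, takes up a peptide delivered by TAP with the help of tapasin, calreticulin and ERp57, and travels to the cell surface. Nearly all nucleated cells make class I molecules, lymphoid organs more than hepatocytes, and interferon-gamma raises most genes of the pathway together. In the H2 region, Tap1 lies head to head with Psmb9, an interferon-inducible subunit of the immunoproteasome.

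The promoters of both genes are printed here because genes of this pathway are known to be induced through shared promoter elements. Each stretch runs from 250 bases before to 50 bases after the RefSeq transcription start in GRCm38.p6, on the plus strand, B2m at chr2:122147437-122147736 and Tap1 at chr17:34187306-34187605. Capitals mark matches, on either strand, to 4 short motifs. The core of interferon response elements was searched as GAAA repeated after 2 free bases. The kappaB-like motif was searched as GGGA and CC parted by 4 free bases. The CCAAT box was searched by those letters, and the core of cAMP response elements was searched as TGACG.
B2m: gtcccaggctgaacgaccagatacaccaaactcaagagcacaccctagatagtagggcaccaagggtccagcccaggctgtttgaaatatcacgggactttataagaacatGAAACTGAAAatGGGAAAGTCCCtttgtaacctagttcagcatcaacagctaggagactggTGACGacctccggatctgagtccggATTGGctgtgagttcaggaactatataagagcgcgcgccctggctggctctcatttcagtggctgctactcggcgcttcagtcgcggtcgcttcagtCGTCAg
Tap1: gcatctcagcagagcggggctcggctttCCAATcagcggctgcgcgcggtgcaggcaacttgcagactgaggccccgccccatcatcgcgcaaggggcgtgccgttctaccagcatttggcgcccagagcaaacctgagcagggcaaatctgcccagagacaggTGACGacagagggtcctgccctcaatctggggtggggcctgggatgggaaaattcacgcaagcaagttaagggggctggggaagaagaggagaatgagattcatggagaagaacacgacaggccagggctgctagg

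The B2m window held the interferon response core at bases -139 to -130 from the start, and the kappaB-like motif lay beside it, matched on both strands in overlapping positions. It also held a CCAAT box on the minus strand at -53 to -49, and the cAMP response core at -78 to -74 and, on the minus strand, at 44 to 48. The Tap1 window held a CCAAT box at -222 to -218 and the cAMP response core at -86 to -82, and no match to the other motifs. Of 32851 mouse promoters of the same length, 3.44% held the interferon response core, 37.4% a CCAAT box, 20.8% the cAMP response core and 20.7% the kappaB-like motif. Among the 27 promoters of the heavy chain, partner, peptide loading and immunoproteasome genes with B2m and Tap1, 5 held the interferon response core, B2m, Erap1, Psme1, H2-T23 and H2-T22. A match describes letters and not a bound site. The B2m gene spans chr2:122147687-122153082 and Tap1 spans chr17:34187556-34197225, where 225 bases separate it from Psmb9. Which part of each transcript the array probe covered was not analysed here.

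B2m was below the pool in liver and above it in spleen. In Dll1 livers its log2 ratio was -0.42, 0.04, -0.25 and -0.26 in mice 1 to 4, and in wildtype livers it was -0.45, -0.47, -0.33 and -0.28. In Dll1 spleens it was 0.36, 0.19, -0.12 and 0.55, and in wildtype spleens 0.68, 0.42, 0.32 and 0.39. Of the 8 livers 7 were below 0, and of the 8 spleens 7 were above 0, the exceptions being the liver of Dll1 mouse 2 and the spleen of Dll1 mouse 3. The means were -0.22 ± 0.19 in Dll1 livers, -0.38 ± 0.09 in wildtype livers, 0.24 ± 0.28 in Dll1 spleens and 0.45 ± 0.16 in wildtype spleens (SD, n = 4 each). From lowest to highest the groups stood as wildtype livers, Dll1 livers, Dll1 spleens and wildtype spleens, and each neighbouring pair in this order overlapped in its single mice.

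Both dye orientations of a mouse gave B2m the same sign in 15 of 16 cases. With the clone in Cy5 the group means were -0.31 in Dll1 livers, -0.33 in wildtype livers, 0.25 in Dll1 spleens and 0.59 in wildtype spleens, and with the clone in Cy3 they were -0.13, -0.43, 0.24 and 0.31 in the same order. The pattern of liver below 0 and spleen above 0 was thus present in either dye on the values as deposited.

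**Figure D1:**
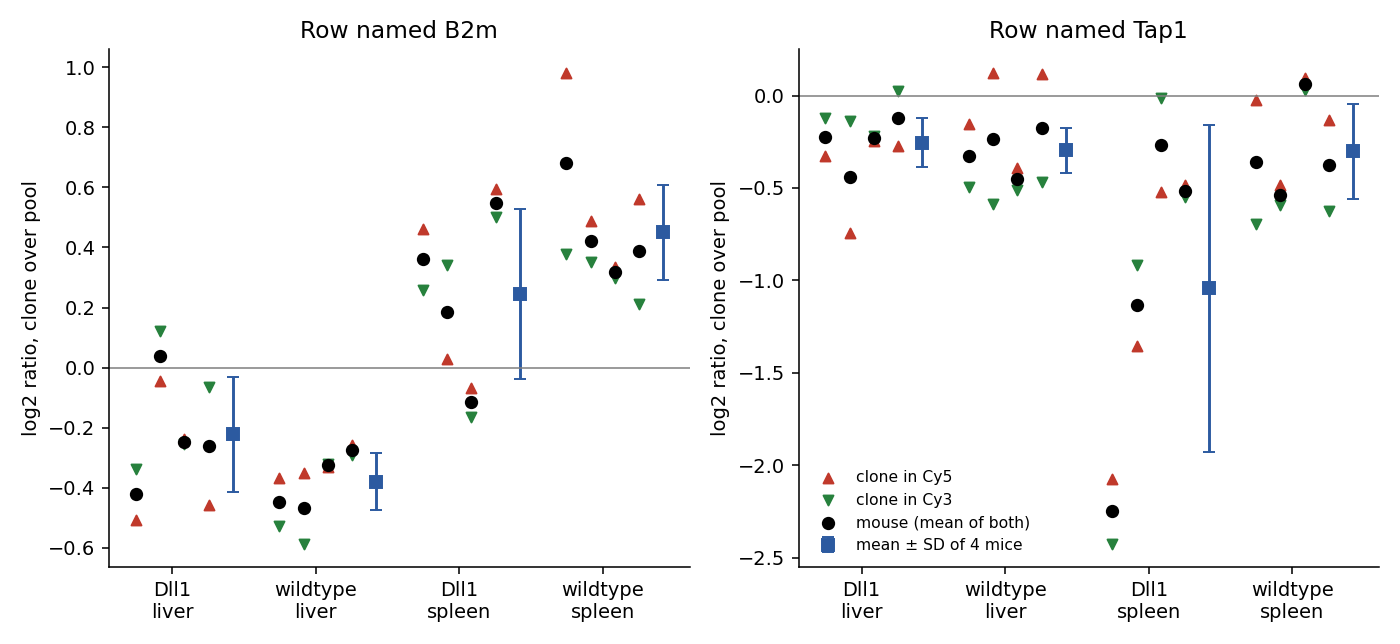
Log2 ratio, clone over pool, of the rows named B2m (left) and Tap1 (right) in the 4 groups; triangles are single arrays by dye of the clone, black points are mice 1 to 4 from left to right, and squares with bars are the mean ± SD of 4 mice. B2m lay below 0 in 7 of 8 livers and above 0 in 7 of 8 spleens, and Tap1 reached -2.25 in 1 Dll1 spleen.

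Within single animals B2m was lower in liver than in spleen in 8 of 8 mice. In Dll1 clones the difference of liver minus spleen was -0.78, -0.15, -0.13 and -0.81, with a mean of -0.47 ± 0.38 (SD, n = 4), a ratio of 0.723. Dll1 mice 1 and 4 carried most of it, and the single values of Dll1 livers and Dll1 spleens overlapped. In wildtype clones it was -1.13, -0.89, -0.64 and -0.66, with a mean of -0.83 ± 0.23 (SD, n = 4), a ratio of 0.562. There the 4 livers lay below all 4 spleens, which was also so for 4.8% of the 15095 features with all values, either named genes or unnamed rows.

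B2m was 1 of 16 features, 0.0973% of 16450, that limma called between liver and spleen in wildtype clones at an adjusted p under 0.05. This contrast had chosen the gene, so nothing is read from the call. Under a fit with the mouse as a block, limma called 0 features in that comparison, and it called 0 whichever wildtype mouse was left out. B2m also lost its call with each probe alone and with all 4 groups in 1 fit, and kept it with either dye alone. In Dll1 clones limma called 0 of 15859 features, with 1386 at an unadjusted p under 0.05. With the Cy3 arrays turned in sign, B2m still stood lower in liver, but its mean difference was -0.10 in Dll1 clones and -0.09 in wildtype clones.

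The row named Tap1 did not share the B2m pattern. In Dll1 livers it was -0.22, -0.44, -0.23 and -0.12, and in wildtype livers -0.32, -0.23, -0.45 and -0.18, so that all 8 livers were below the pool, between -0.45 and -0.12. In Dll1 spleens it was -2.25, -1.14, -0.27 and -0.52, and in wildtype spleens -0.36, -0.54, 0.06 and -0.38. The means were -0.25 ± 0.13 in Dll1 livers, -0.30 ± 0.12 in wildtype livers, -1.04 ± 0.88 in Dll1 spleens and -0.30 ± 0.26 in wildtype spleens (SD, n = 4 each). Dll1 mice 1 and 2 set the low mean and wide spread of the Dll1 spleens, and all 4 groups overlapped with their neighbours in level.

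Both dye orientations of Tap1 agreed in sign in 8 of 8 spleens and 5 of 8 livers. In wildtype livers they agreed in 2 of 4 mice, with a mean of -0.08 with the clone in Cy5 and -0.52 with the clone in Cy3. The difference of liver minus spleen was 2.03, 0.70, 0.04 and 0.39 in Dll1 clones, with a mean of 0.79 ± 0.87, and 0.04, 0.30, -0.52 and 0.20 in wildtype clones, with a mean of 0.01 ± 0.37 (SD, n = 4 each). It was above 0 in 4 of 4 Dll1 clones and in 3 of 4 wildtype clones. Without Dll1 mouse 1 the mean of the Dll1 clones was 0.37, and with the Cy3 arrays turned it was -0.08, of opposite sign.

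**Figure D2:**
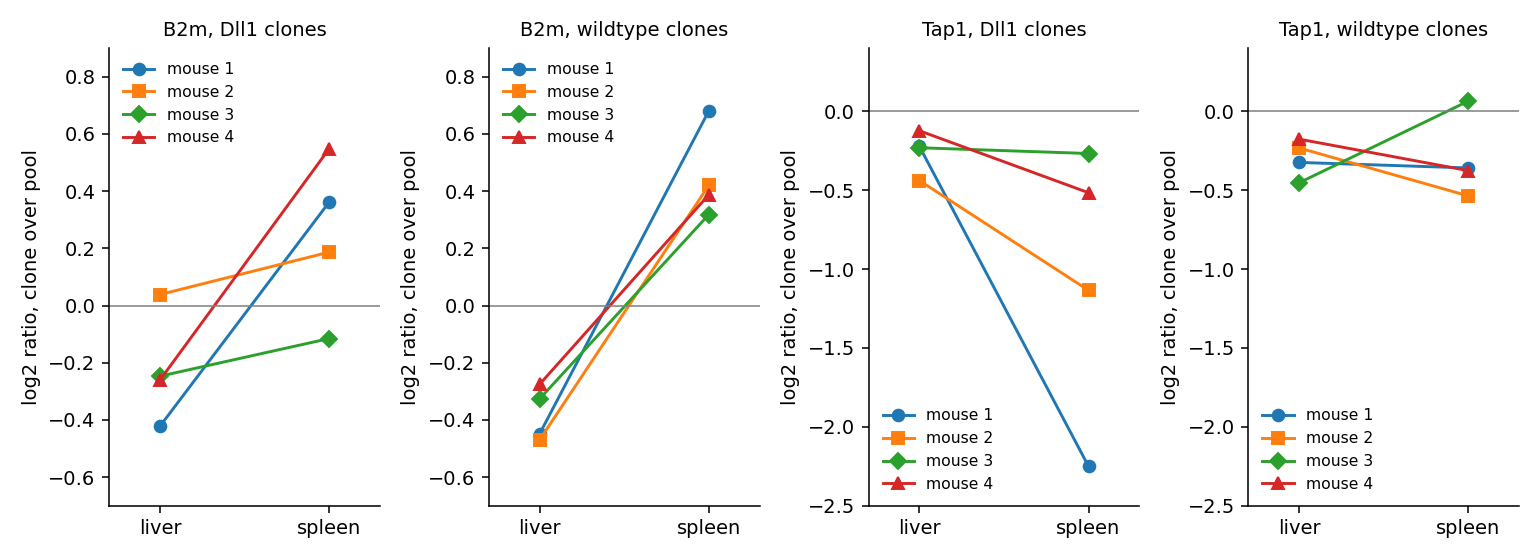
Log2 ratio, clone over pool, in liver and in spleen of the same animal, a line for each mouse, for B2m and Tap1 in Dll1 and wildtype clones (the vertical scale differs between the genes). All 8 lines of B2m are lower in liver than in spleen, and the steepest line of Tap1, from Dll1 mouse 1, is higher in liver.

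The rows named B2m and Tap1 therefore parted in spleen. B2m minus Tap1 was 0.03 ± 0.31 in Dll1 livers and -0.08 ± 0.15 in wildtype livers, against 1.29 ± 1.02 in Dll1 spleens and 0.75 ± 0.35 in wildtype spleens (SD, n = 4 each), and it was above 0 in every one of the 8 spleens. Across the 8 livers their values correlated at a Pearson r of -0.341, and across the 8 spleens at 0.001. These points share arrays, pool and dye, and the coefficients are descriptions.

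The values of the row named Tap1 ran close to those of haemoglobin in spleen. Hba-a1, an alpha chain of adult haemoglobin made by erythroid cells and measured by 6 probes, had -2.22, -1.13, -0.23 and -0.66 in Dll1 spleens, and -0.44, -0.71, -0.03 and -0.31 in wildtype spleens. Tap1 minus Hba-a1 averaged 0.04 ± 0.09 over the 8 spleens and ran from -0.06 to 0.17. Pearson's r of Tap1 with Hba-a1 was 0.993 over the 8 spleens (Spearman's rho 0.976), and 0.937 without Dll1 mice 1 and 2, the farthest from the median of Hba-a1. In the 16 spleen arrays Tap1 correlated with the single Hba-a1 probes at 0.934 to 0.990, a range close to that of the Hba-a1 probes among themselves, 0.95 to 0.997. B2m correlated with these probes at -0.02 to 0.128. Over the 8 spleens r of Tap1 was -0.810 for class I heavy chains and 0.776 for the class I-like partner gene Fcgrt. It was 0.238 for peptide loading, -0.237 for the immunoproteasome, 0.059 for class I gene regulators and -0.173 for interferon-gamma response genes. Over the 8 livers r was 0.647 for the regulators, and -0.221 to 0.249 for those other class I lists.

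In the 8 livers r of Tap1 with Hba-a1 was 0.675, and 0.640 without the 2 farthest livers. In the 16 liver arrays Tap1 correlated with the single Hba-a1 probes at -0.287 to 0.921. These probes correlated among themselves at only -0.171 to 0.809 there. There Hba-a1 was -0.29, -0.59, -0.29 and -0.14 in Dll1 clones and -0.75, -0.56, -0.53 and -0.41 in wildtype clones, and Tap1 lay above it in every liver, by 0.02 to 0.43. Hba-a1 was singled out after its values were seen, and the arrays, pool and dyes of both rows are the same. Because these values go against the label of a class I gene, the row is called by its name in the platform table only. What it measured was not tested, and nothing is said here about the transporter.

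**Figure D3:**
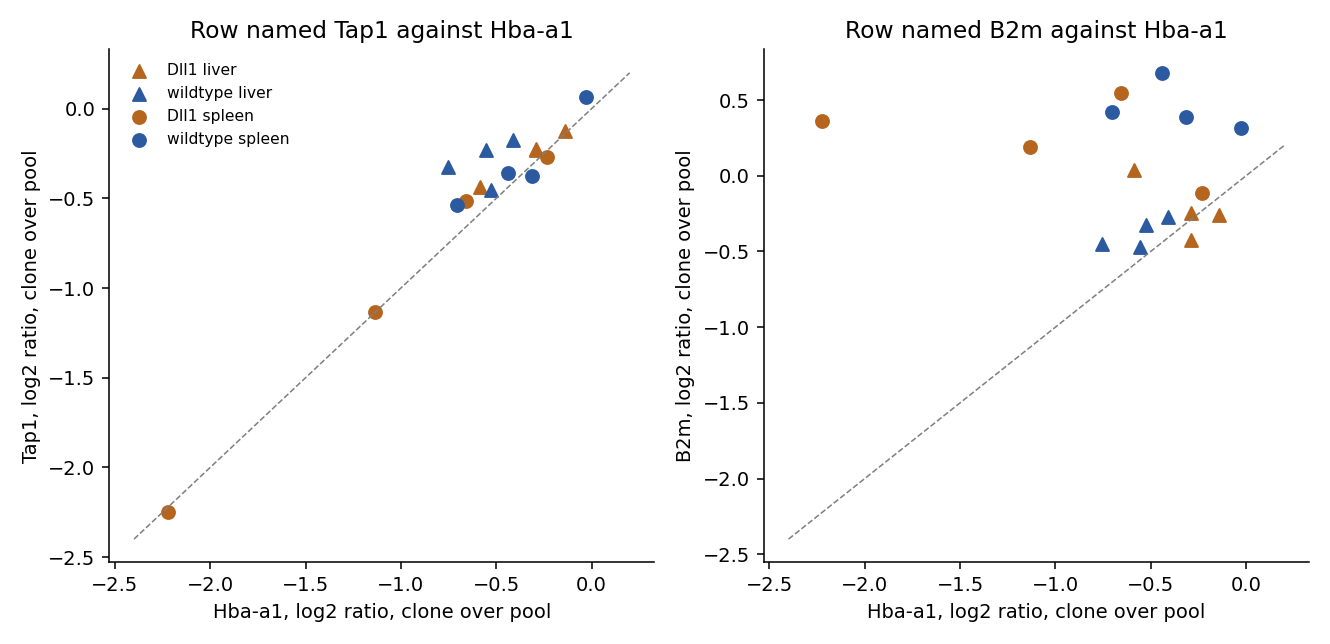
Log2 ratio, clone over pool, of the rows named Tap1 (left) and B2m (right) against that of Hba-a1 for each mouse and organ; triangles are livers, circles spleens, brown Dll1 and blue wildtype clones, and the dashed line marks equal values. The spleens of Tap1 lie along the line down to -2.25, and B2m shows no such run.

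Other erythroid markers were also low in these spleens. The mean of the 6 measured ones besides Hba-a1, of 14 listed, was -1.33, -0.90, -0.12 and -0.03 in Dll1 spleens and -0.47, -0.78, -0.43 and -0.45 in wildtype spleens. In livers it lay between -0.15 and 0.18 in Dll1 clones and between -0.04 and 0.12 in wildtype clones. Its correlation with Tap1 was 0.818 over the 8 spleens and 0.912 over the 8 livers. The mean of 8 neutrophil markers was -0.65, -0.71, -0.22 and -0.33 in Dll1 spleens and between -0.05 and 0.13 in wildtype spleens, and it correlated with Tap1 at 0.802 over the 8 spleens and at -0.295 over the 8 livers. Their part in the values of Tap1 was not tested.

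The named genes outside the fixed lists whose 16 values were most like Tap1 were Gamt at an r of 0.987, Ucma at 0.981, Nup155 at 0.974, St6galnac4 at 0.974 and Plppr2 at 0.968. Gamt, which makes creatine, gave -2.05, -1.05, -0.18 and -0.59 in Dll1 spleens and -0.31, -0.67, 0.06 and -0.31 in wildtype spleens, again close to Hba-a1. Among the listed genes Hba-a1 had the highest r with Tap1, 0.969. Least like Tap1 outside the lists were Adss, an enzyme of purine synthesis, at -0.943, Cenpo, a centromere protein, at -0.926 and Aqp5, a water channel, at -0.924. Of the 11826 features with all 16 values, 21 reached an r above 0.95 with Tap1, and 10 of these were named. None did so with B2m.

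Among the listed genes, r with B2m over the 16 values was highest for Cd28 of T cells at 0.944, Cd74 of the class II pathway at 0.933 and the class I heavy chain H2-Q10 at 0.918. Other T cell markers differed, with Cd3d at -0.345 and Thy1 at -0.289. Outside the lists the most like were Mdh1, cytosolic malate dehydrogenase, at an r of 0.934, Ddx5, an RNA helicase, at 0.922, Aadat at 0.912, Actc1, cardiac actin, at 0.906 and Rpl39, a ribosomal protein, at 0.90. Livers and spleens form separate clusters in B2m, so these coefficients over 16 values largely follow the gap between organs. Within the 8 spleens Mdh1 kept an r of 0.917 with B2m and within the 8 livers 0.723. Mdh1 was -0.20 ± 0.19 in Dll1 livers and -0.34 ± 0.11 in wildtype livers, and 0.04 ± 0.19 in Dll1 spleens and 0.17 ± 0.05 in wildtype spleens (SD, n = 4 each). Least like B2m outside the lists were H3c1, a histone, at -0.797, Racgap1, which acts in cytokinesis, at -0.795 and E2f2, a cell cycle transcription factor, at -0.794.

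Several lists had a positive r with B2m in spleen, and others a negative one. In the 8 spleens r was -0.597 for interferon-gamma response genes, -0.562 for peptide loading and -0.223 for class I gene regulators. For hepatocyte markers it was -0.499 and for erythroid markers -0.061. T cell markers reached 0.227 in spleens and 0.607 in livers, and B cell markers 0.568 and 0.038. The mean of the 6 measured class II genes of 11 listed was 0.25, 0.23, -0.05 and 0.32 in Dll1 spleens and 0.17 to 0.34 in wildtype spleens, and correlated with B2m at 0.786 over the 8 spleens and -0.102 over the 8 livers. Within this list r in spleens was 0.789 for Cd74 but 0.015 for H2-Eb1 and 0.079 for H2-DMb1. For the 4 measured myeloid markers of 10 listed, r was 0.803 in spleens and 0.585 in livers, and their mean was -0.03 to 0.36 in Dll1 spleens and 0.24 to 0.38 in wildtype spleens. The 4 immunoproteasome genes reached 0.80 in spleens and -0.267 in livers. The 2 exocrine pancreas genes with all values reached 0.649 in spleens, with a mean of -0.24 to 0.19 in Dll1 spleens and 0.24 to 0.60 in wildtype spleens. The mean of 9 hepatocyte markers was -0.21 to -0.07 in Dll1 livers and -0.37 to -0.15 in wildtype livers, below 0 in all 8 as B2m was in 7. Their part in the values of B2m was not tested.

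Dll1 clones were then set against wildtype clones within each organ, a contrast other than the one that chose the genes, though on the same group values, and neither gene passed in either organ. B2m gave a Dll1 minus wildtype value of 0.16 (SE 0.09) in liver, at a limma adjusted p of 0.934 and a two-sided exact permutation p of 0.143. In spleen it was -0.21 (SE 0.19), at a limma adjusted p of 0.886 and an exact p of 0.257. Tap1 stood at 0.04 (SE 0.08) in liver, with a limma adjusted p of 0.970 and an exact p of 0.629, and at -0.74 (SE 0.40) in spleen, with 0.871 and 0.2. With 4 mice against 4 the smallest exact p is 0.0286. No named or unnamed feature passed either: limma called 0% of 16900 features in liver (823 at an unadjusted p under 0.05) and 0% of 15632 in spleen (730 unadjusted). With all 4 groups in 1 fit limma called 0 features in liver and 87 in spleen, neither gene among them. Each genotype had its own pool, so these differences also hold any difference between the pools.

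The Tap1 difference in spleen rested on few animals, and leaving out 1 mouse at a time gave -0.998 to -0.338. Without Dll1 mouse 1 the Dll1 spleens averaged -0.64. With the Cy3 arrays turned in sign, B2m in liver became -0.14, at a limma adjusted p of 0.092, and Tap1 in liver became -0.36, at a limma adjusted p of 0.00774, both of opposite sign to the values as deposited. With that turn limma called 7035 features between the genotypes in liver, so the direction and the call depend on how the dye-swapped arrays are read. By dye, Tap1 in liver was -0.32 with the clone in Cy5 (limma adjusted p 0.150) and 0.40 with the clone in Cy3 (limma adjusted p 0.0103).

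The difference between organs was also compared between the genotypes. B2m gave a Dll1 minus wildtype value of 0.36 (SE 0.24), at a limma adjusted p of 0.895 and an exact permutation p of 0.229. Tap1 gave 0.78 (SE 0.41), at a limma adjusted p of 0.895 and an exact p of 0.114. Limma called 0% of 15599 features here, with 773 at an unadjusted p under 0.05. The gaps between organs had chosen the genes, so the direction of these differences is favoured by that choice. None of the 6 tests of B2m and Tap1 passed, which does not show that the genotypes act alike.

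The rest of the pathway was read from 72 listed genes, 38 of them on the array: heavy chains, class I-like partners of B2m, peptide loading, the immunoproteasome, regulators of class I genes, interferon-gamma response genes and receptors that read class I. Limma called 0 of them in every comparison. At an unadjusted p under 0.05 stood 0 of 35 in Dll1 minus wildtype livers, 0 of 30 in Dll1 minus wildtype spleens, 4 of 30 in liver minus spleen of Dll1 clones and 6 of 33 in that of wildtype clones. Over all features the share at that p was 8.74% in liver minus spleen of Dll1 clones and 10.1% in that of wildtype clones. In liver minus spleen, 23 of 30 tested were below 0 in Dll1 clones with a median of -0.11, and 26 of 33 in wildtype clones, also with a median of -0.11. Over all features the medians were -0.01 in both, with 48.1% above 0 in Dll1 clones and 47.7% in wildtype clones. Between Dll1 and wildtype clones the listed genes split evenly, 18 above and 17 below 0 in liver and 15 each way in spleen.

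Of 17 listed heavy chains 4 were on the array and 3 could be tested, and of these H2-Q10 showed the pattern of B2m. This gene encodes a class Ib heavy chain that mouse liver secretes. It was -0.20, 0.06, -0.19 and -0.15 in Dll1 livers and -0.23, -0.18, -0.34 and -0.13 in wildtype livers, and it was 0.45, 0.17, 0.32 and 0.38 in Dll1 spleens and 0.77, 0.47, 0.13 and 0.47 in wildtype spleens. Livers lay below spleens in both genotypes, by -0.45 in Dll1 clones and -0.68 in wildtype clones, and r with B2m was 0.763 over the 8 livers and 0.630 over the 8 spleens. The classical heavy chain H2-K1 differed between organs by -0.07 in Dll1 clones and 0.05 in wildtype clones. H2-M3, which presents formylated peptides, differed by -0.49 and -0.07 in the same order, with 1.19 in the spleen of Dll1 mouse 1. Heavy chain genes are near-identical copies, so a probe may also bind the RNA of its relatives, and these values are uncertain as to the gene. Fcgrt, the heavy chain of the neonatal Fc receptor that also pairs with beta-2-microglobulin, differed by 0.61 in Dll1 clones and -0.18 in wildtype clones and ranged from -1.78 to 0.05 in Dll1 spleens.

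The tapasin gene Tapbp, which links TAP to class I molecules, differed between liver and spleen by -0.26 in Dll1 clones and -0.07 in wildtype clones, and was 0.31, -0.09, 0.96 and -0.16 in Dll1 spleens. The chaperone genes Calr and Canx differed by -0.08 to 0.07 in either. Psmb9, the head-to-head neighbour of Tap1, differed by -0.11 in both genotypes and had 0.28, 0.18, -0.22 and 0.22 in Dll1 spleens, where the row named Tap1 had its lowest values. It was 0.09 to 0.28 in wildtype spleens. Psmb8, another inducible proteasome subunit, differed by -0.08 in Dll1 clones and -0.17 in wildtype clones, and Psme2, of the proteasome activator, by -0.14 and -0.35.

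Of the interferon-gamma response genes, 6 of 7 tested in Dll1 clones and 8 of 9 in wildtype clones were below 0 in liver minus spleen, with none called. The chemokine gene Cxcl9 gave -0.65 and -0.24 in Dll1 and wildtype clones, and the GTPase gene Igtp, the exception, gave 0.89 and 0.14. Cd8b1, a chain of the CD8 co-receptor that binds class I, gave -0.56 and -0.18. In the class II family, Cd74, the invariant chain, gave -0.51 and -0.65, and H2-Eb1, a class II beta chain, -1.23 and -0.50. H2-Oa, of the same family, gave 0.39 and 0.09. Of the 6 class II genes tested, 3 were below 0 in Dll1 clones with a median of -0.05, and 5 in wildtype clones with a median of -0.17. Cd74 was among the 16 features called in wildtype clones without the mouse as a block, with Cd28 of T cells and the myeloid gene Lyz2. Of 7 T cell markers tested there 5 were below 0 and 2 above, Thy1 at 0.60 and Cd3d at 0.02. The 4 myeloid markers tested were all below 0 there, and in Dll1 clones 3 were below and 1 above.

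**Figure D4:**
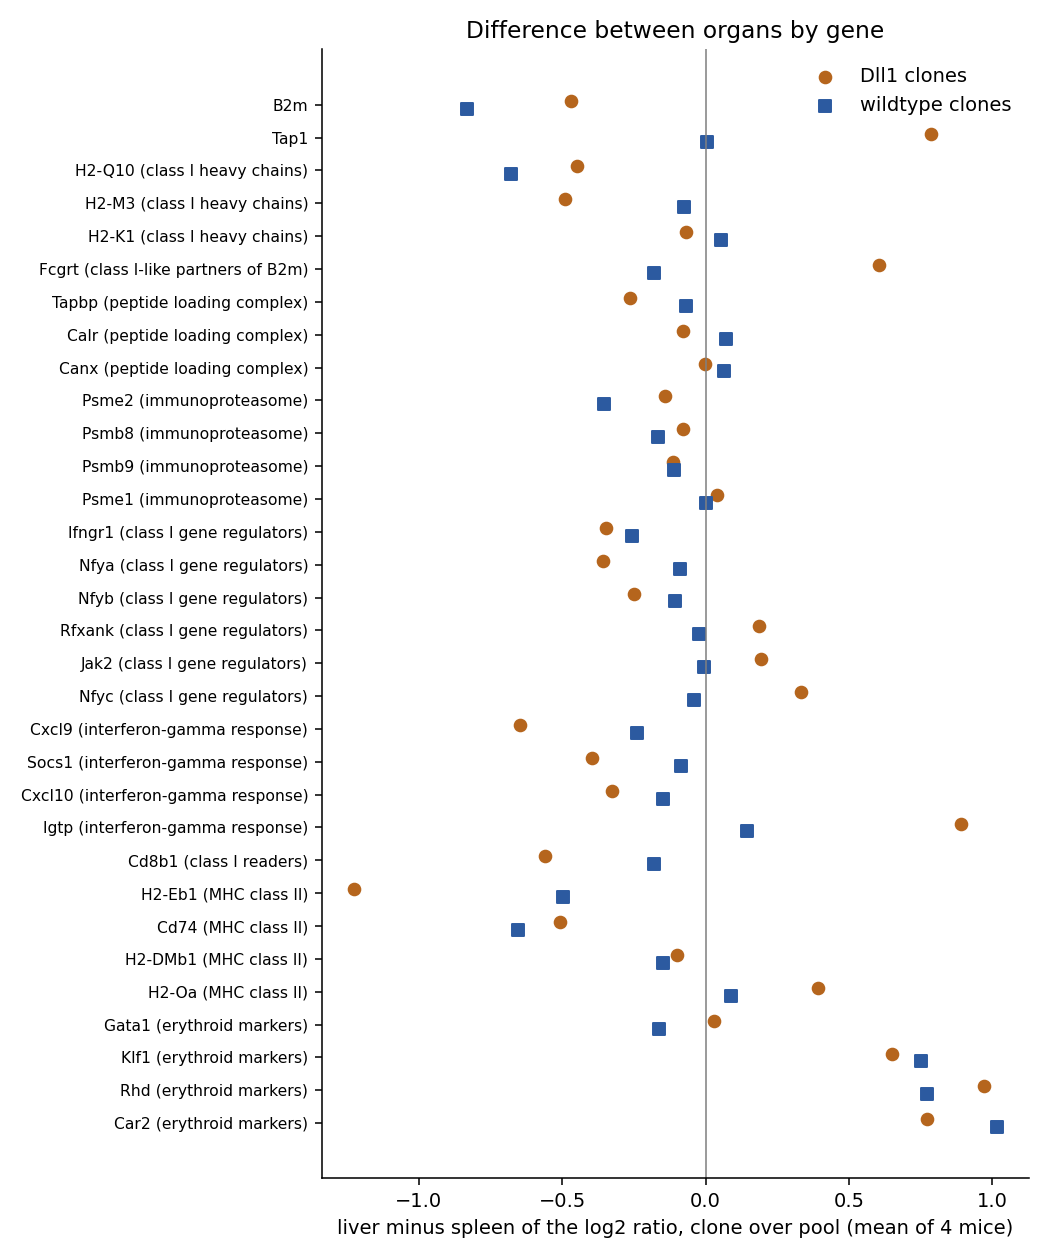
Mean difference of liver minus spleen in the log2 ratio, clone over pool, for B2m, Tap1 and the listed genes with the largest sizes, in Dll1 clones (circles) and wildtype clones (squares), n = 4 mice for most. B2m at -0.47 and -0.83 lies beside H2-Q10. In Dll1 clones Tap1 at 0.79 lies near the erythroid markers Car2, Rhd and Klf1, at 0.65 to 0.97. Igtp at 0.89 and Fcgrt at 0.61 also lie near it there, and the erythroid marker Gata1 lies at 0.03. In wildtype clones Tap1 at 0.01 lies below Car2, Rhd and Klf1, at 0.75 to 1.02.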

How the data were processed

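Liver and spleen RNA of 8 cloned mice was hybridised on 32 2-colour arrays; 20 µg of RNA was labelled per sample, per the labels' protocols. The deposited table holds 1 log2 ratio per probe and array, made by the authors; how they were normalized or filtered, and on which scanner, is not given in the sources used here. Precision is limited by the number of arrays; spot brightness was not analysed here. The 1183 values above 9 in size were read as spots without a ratio and set to missing. After that, a liver array lacked 59 to 230 values and a spleen array 248 to 2859. Neither B2m nor Tap1 had a missing value.

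The platform table names 12771 probes. Row n of the 20794 rows was named by probe n minus 11, since probes of the same gene correlated at a mean of 0.0562 over 2258 pairs under that shift and at -0.000694 over 2171 pairs with no shift; symbols were updated by gene number to GRCm38.p6. Under it the 6 probes named Hba-a1 correlated among themselves at 0.95 to 0.997 in spleen arrays and at -0.171 to 0.809 in liver arrays. The 6 rows so named with no shift had a median r of -0.139 over their 15 pairs. The shift was chosen from these same values. For pairs with a probe in the region of B2m and Tap1 the means lay closer together. They were 0.0465 over 448 pairs with the shift of 11, 0.0362 over 408 with a shift of 13 and 0.00915 over 433 with no shift. Both genes had 1 probe each. A mouse's value was the mean of its 2 dye orientations, then of a gene's probes. The mean ratios of both orientations correlated across rows at -0.381 in Dll1 livers, -0.783 in wildtype livers, -0.334 in Dll1 spleens and -0.468 in wildtype spleens, so strong dye effects, or arrays not yet turned, cannot be told apart. The median SD between mice was 0.109, 0.0865, 0.398 and 0.257 in the same order.

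Comparisons used limma 3.58.1 in R 4.3.3 (lmFit, eBayes, two-sided, at least 3 mice per group) with Benjamini-Hochberg adjustment over all features, and exact permutation tests in scipy 1.17.1 for the members. The code was tested on simulated data. Mice with the same number in both organs are the same animal by the mouse identifiers in the labels. Deviations from the group mean, in liver against spleen, correlated within an animal at a mean of 0.00606 in Dll1 and 0.0498 in wildtype clones. Between different animals the means were -0.00199 and -0.0166. Deviations in a group add to 0, which largely fixes the means between animals, so they are no separate check of the pairing. P-values measure the spread between these animals. The alternatives tried were turned Cy3 arrays, single dyes, names with no shift, array centring and scaling, filters, shared fits, the mouse as a block and each mouse left out. The genes named were the members, listed genes with the largest differences between organs (up to 3 of each sign per list) or called, and, for likeness, the 5 most and 3 least correlated named genes outside the lists; Hba-a1 and other single values were named after they were seen. The members and lists were chosen with earlier results of these data known. Promoters are from RefSeq, 1 for each of the 2 genes. Protein sequences were not used here.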

Additional observations from a re-analysis of the deposited data

Results flagged for a closer look

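B2m in wildtype clones stood on opposite sides of the pool in the 2 organs: all 4 livers lay below the pool, at -0.47 to -0.28, and all 4 spleens above it, at 0.32 to 0.68, a liver minus spleen difference of -0.83. No test of it is used, because the gene had been chosen for it. In the single groups of 4 mice no value of B2m or Tap1 stood far enough from the others to pass Dixon's 95% limit; the Tap1 value of -2.25 in the spleen of Dll1 mouse 1 did not pass it either, since mouse 2 lay at -1.14.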

How the results depend on the processing

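The sign of B2m and Tap1 depended most on 2 readings of the table, and the cause was not tested. With the Cy3 arrays turned in sign, B2m was -0.14 in Dll1 minus wildtype livers, -0.0878 in liver minus spleen of wildtype clones, -0.0106 in the difference of that between genotypes and 0.0522 over the pool in wildtype livers. Tap1 then was -0.36 in Dll1 minus wildtype livers, -0.0765 in liver minus spleen of Dll1 clones, -0.13 in the difference between genotypes, 0.22 over the pool in wildtype livers and 0.17 in wildtype spleens. The counts of calls became 7035 in Dll1 minus wildtype livers, 3736 in liver minus spleen of wildtype clones, and 19, 9631 and 254 over the pool in Dll1 livers, wildtype livers and wildtype spleens. With names at the row number as given, B2m was 0.00787 in Dll1 minus wildtype spleens and -0.26 in liver minus spleen of wildtype clones. Tap1 was -0.004 in Dll1 minus wildtype livers, 1.19 in Dll1 minus wildtype spleens, -0.33 in liver minus spleen of Dll1 clones, 0.87 in that of wildtype clones, -1.20 in the difference between genotypes, and 0.0786, 0.0826 and 0.40 over the pool in Dll1 livers, wildtype livers and Dll1 spleens; liver minus spleen of wildtype clones then had 10 calls.

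Scaling the arrays to 1 spread turned Tap1 to -0.10 in Dll1 minus wildtype livers and -0.11 in liver minus spleen of wildtype clones, left 0 calls in that comparison and 1 in wildtype livers over the pool. With the clone in Cy5 only, Tap1 was -0.32 in Dll1 minus wildtype livers, and the counts were 3076 there, 2033 in liver minus spleen of wildtype clones and 5938 in wildtype livers over the pool. With the clone in Cy3 only, Tap1 was -0.047 in liver minus spleen of wildtype clones, and those counts were 3871, 1021 and 7680. All 4 groups in 1 fit gave 87 calls in Dll1 minus wildtype spleens, 13 and 3 in liver minus spleen of Dll1 and wildtype clones, and 0, 1151 and 91 over the pool in wildtype livers, Dll1 spleens and wildtype spleens. Single arrays with a dye term gave 1 and 32 calls in liver minus spleen of Dll1 and wildtype clones, and 76 and 16 over the pool in wildtype livers and wildtype spleens. Accepting 1 dye orientation gave 0 calls in liver minus spleen of wildtype clones and 16 in wildtype livers over the pool, where keeping values above 9 gave 6 and single probes 51, against 26.

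With the mouse as a replicate block, liver minus spleen of wildtype clones had 0 calls, against 16 without it; the block changed no other count and left the means as they were. Leaving out 1 mouse at a time gave 0 to 1 calls in Dll1 minus wildtype livers, 0 to 0 in liver minus spleen of wildtype clones and 0 to 66 over the pool in wildtype livers. It moved Tap1 between -0.00979 and 0.104 in Dll1 minus wildtype livers and between -0.0942 and 0.179 in liver minus spleen of wildtype clones, and B2m between -0.58 and -0.35 in liver minus spleen of Dll1 clones and between -0.89 and -0.73 in that of wildtype clones. The call of B2m in liver minus spleen of wildtype clones, at a limma adjusted p of 0.0494, was lost in most alternatives: 0.0509 with single probes, 0.06 with all 4 groups in 1 fit, 0.0656 with 1 orientation accepted, 0.113 with scaling, 0.195 to 0.305 without 1 mouse, 0.465 with names as given, 0.522 with the block and 0.525 with turned arrays. The call was kept at a limma adjusted p of 0.00322 with single arrays and a dye term, 0.0109 with the clone in Cy5 only and 0.0223 with the clone in Cy3 only. It was also kept, at 0.0476 to 0.049, with array centring, values above 9 kept and other filters on mice. This contrast had chosen the gene, so nothing is read from the call, kept or lost. The other values of B2m and Tap1 kept their direction, and the other counts stayed within 1.5 times. Among the tests of Dll1 minus wildtype, Tap1 in liver passed with the clone in Cy3 only, at 0.40, and with turned arrays, as given above.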
